A study of Mus musculus with 34 samples.

Results

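Loss of Mta2 alone was examined in 6 of the 34 RNA-seq libraries of a study of the MTA proteins in mouse embryonic stem (ES) cells. These are the 3 libraries labelled Mta2_KO and the 3 labelled Mta2_WT, chosen by genotype label. All 6 are labelled as strain 129/Ola and as grown in 2i+LIF, a medium in which blocked Mek and Gsk3 kinases, together with leukaemia inhibitory factor, hold mouse ES cells in a naive, self-renewing state. Cells were plated on gelatin, RNA was purified on columns with DNase treatment, and libraries were made with a NEXTflex directional or a SMARTer stranded Pico kit, without the labels saying which kit made which library. The Mta2 null allele goes back to a EUCOMM gene trap line and was produced in mice by deletion with Sox2-Cre, which acts in the early embryo, before ES cells were derived. The study lists Mta2 KO/KO as 1 primary line from ES cell derivation and names no Mta2 wild-type line in the same list, and the labels number the libraries of each genotype without giving a separate line, clone or animal. The p-values therefore measure only the spread between these libraries, and a difference between lines cannot be told apart from the loss of Mta2.

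Mta2 is a scaffold subunit of the nucleosome remodelling and deacetylase (NuRD) complex. MTA proteins hold the histone deacetylases Hdac1 and Hdac2 and the histone chaperones Rbbp4 and Rbbp7, and Mbd3 links them to a remodelling module with Chd4, Gatad2a or Gatad2b and Cdk2ap1. In ES cells NuRD binds active enhancers and promoters and moderates the transcription of genes that are already on, among them pluripotency genes.

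Each library held between 31273890 and 40613585 counts. Of the 22018 genes in the files 15602 passed the filter on low counts and were tested with the edgeR quasi-likelihood test, with Benjamini-Hochberg adjustment over all of them. Levels are CPM, counts scaled to a common library size with TMM factors and not corrected for gene length, differences are log2 fold changes of Mta2_KO over Mta2_WT, and "increased" and "decreased" mean an adjusted p under 0.05 together with a log2 fold change past 1 in size.

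One feature of the libraries cut across genotype. A group of 12 gene models, all with Gm names such as Gm10800 and Gm10801, took 3.18%, 0.141% and 3.23% of the counts in Mta2_KO replicates 1, 2 and 3, and 0.0475%, 0.0587% and 6.97% in Mta2_WT replicates 1, 2 and 3. Both genotypes thus held libraries with high and with low counts of these models. None of the 12 was called with all 6 libraries, and without Mta2_WT replicate 3 all 12 were increased. The group was found in these data, its source was not tested, and each gene group that the text leads with is also given for the 3 libraries of either kind. Those fits set 2 libraries of 1 genotype against 1 of the other and assume that the lone library varies as the pair does.

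Mta2 itself, on chromosome 19 (chr19:8941875-8952303, GRCm38), stood at 11.3, 8.72 and 9.80 CPM in Mta2_KO and at 222, 235 and 219.5 CPM in Mta2_WT. The groups did not overlap, and the log2 fold change was -4.50 (SE 0.09, adjusted p = 1.11e-09). The transcript was lower in every Mta2_KO library than in the other 12 single-mutant libraries of the study, those of the Mta1 and Mta3 comparisons with their controls, whose labels name no change of Mta2. Of the remaining NuRD subunits, only Chd3, which encodes an alternative remodelling ATPase, passed both thresholds. It stood at 116, 106 and 120.1 CPM in Mta2_KO and 54.8, 54.1 and 46.3 CPM in Mta2_WT (log2 1.14, SE 0.07, adjusted p = 2e-06). In the 3 libraries with low counts of the 12 Gm models its difference was 0.975 and the call was lost.

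The sister subunit Mta1 was higher at the adjusted p alone, with 37.0, 31.5 and 35.3 CPM in Mta2_KO and 21.3, 25.2 and 17.7 CPM in Mta2_WT, a log2 difference of 0.69 (SE 0.12, adjusted p = 0.00117). Mta3, the other sister, differed by -0.14 (SE 0.05, adjusted p = 0.066) and missed both thresholds. Cdk2ap1 (0.71), Mbd3 (0.51), Hdac2 (0.32) and Gatad2a (0.29) were higher at the adjusted p alone, while Rbbp7 (-0.40), Chd4 (-0.24) and the chromosome 3 gene Gatad2b (-0.74) were lower. Hdac1, Rbbp4, Mbd2 and Chd5 did not pass, with log2 values between -0.09 and 0.21. Summed over the 15 subunits, Mta2 included, CPM ran from 2004 to 2044 in Mta2_KO and from 2063 to 2397 in Mta2_WT. Without Mta2, the deleted gene, the sums of the genotypes overlapped.

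Over all chromosomes, 828 genes were increased (5.31% of those tested) and 942 were decreased (6.04%). At the adjusted p alone 7460 genes (47.8%) differed. The CPM of the groups did not overlap for 1763 of the 1770 genes called, against 8871 (56.9%) of all genes tested. Libraries of 1 genotype were thus close to each other for most genes, and the fold threshold, not the p-value, decided most calls.

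Chromosome 3 was shifted as a block. The median log2 fold change of its 736 tested genes was -0.50, a ratio of 0.709 of Mta2_KO to Mta2_WT, and 83.3% of these genes were lower in Mta2_KO. The medians of the other 20 chromosomes, the mitochondrial one included, lay between -0.11 and 0.079. Along the chromosome, windows of 10 Mb had medians from -0.07 in the first, with 13 genes, to -0.62 in the window from 30 to 40 Mb, with 49 genes. Of the 736 genes, 321 lay within 0.25 of the chromosome median.

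**Figure D1:**
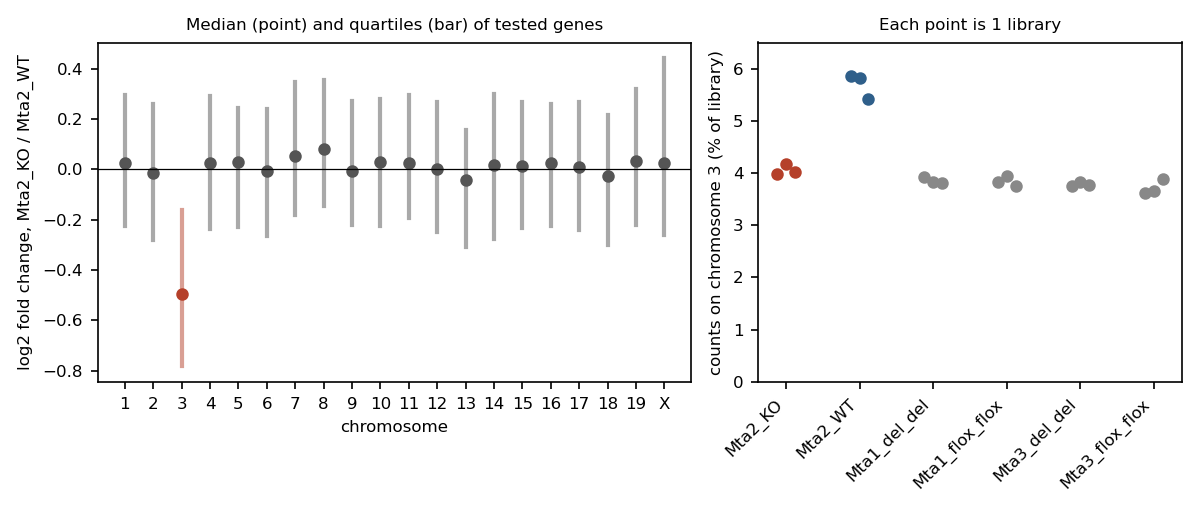
Left, median (point) and quartiles (bar) of the log2 fold change of Mta2_KO over Mta2_WT over the tested genes of each nuclear chromosome shown; right, the percentage of all counts that fall on chromosome 3 in each of the 18 single-mutant libraries, 1 point a library. Chromosome 3 has its median at -0.50 while the others lie near 0, and the 3 Mta2_WT libraries, at 5.42% to 5.86%, sit above the other 15.

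The share of each library's counts on chromosome 3 shows which genotype stood apart. It was 3.99%, 4.17% and 4.01% in Mta2_KO and 5.86%, 5.83% and 5.42% in Mta2_WT. The difference between 4.06% ± 0.102 and 5.70% ± 0.244 (SD, n = 3 each) gave p = 0.1 in an exact two-sided permutation test, the smallest value that 3 against 3 libraries allow. In the other 12 single-mutant libraries the share was between 3.62% and 3.94%. The Mta2_WT libraries were thus the ones that stood apart from those libraries by the wider margin. Without the 20 genes with the most counts the ratio of the shares was 0.718, against 0.711 with them, so a few genes with many counts did not carry the shift. The number of copies of the chromosome in either line was not measured here.

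On chromosome 3, 19 genes were increased (2.58%) and 102 were decreased (13.9%), beside 5.44% and 5.65% for the 14866 genes elsewhere. Taken from the chromosome median instead of 0, 37 genes lay more than 1 above it and 48 more than 1 below it, at an adjusted p under 0.05. That p is for a difference from 0, and departure from the median was not tested. The increased genes had to outweigh the block. The bHLH factor Bhlhe22 stood at 3.55, 3.29 and 3.80 CPM against 0.819, 0.643 and 0.786 CPM (log2 2.24, SE 0.17, adjusted p = 5.72e-06). Rab25, a small GTPase of epithelial recycling endosomes (2.11), Crabp2, which binds retinoic acid (1.94), the potassium channel Kcnc4 (1.92) and the oxysterol hydroxylase Cyp7b1 (1.87) were also increased. Negr1, a neuronal adhesion protein, was called at 1.51 with an adjusted p of 0.0105, but not when all 18 single-mutant libraries were fitted together (adjusted p = 0.123) or in the 3 libraries with high counts of the 12 Gm models (0.995).

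The genes furthest below the chromosome median were Tdpoz4, Gm10696, Gm4778, Tacr3, Tdpoz3 and Gm9125, with log2 fold changes from -6.02 to -4.13. Tacr3, a tachykinin receptor, stood at 0.149, 0.331 and 0.285 CPM in Mta2_KO and 5.30, 6.28 and 6.28 CPM in Mta2_WT. The Tdpoz and Gm genes lie together near 94 Mb and are taken up with the genes of the 2-cell stage below. Tet2, which oxidises 5-methylcytosine, also lies on this chromosome and stood at 459, 428 and 445 CPM against 1034, 1046 and 982 CPM (log2 -1.20, SE 0.05, adjusted p = 1.93e-07), 0.71 below the chromosome median. Cth, an enzyme of cysteine synthesis, was decreased too, from 219.9 to 76.2 CPM (-1.53).

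Outside chromosome 3, 809 genes were increased (5.44% of 14866) and 840 were decreased (5.65%). All group counts that follow are over genes outside chromosome 3 unless they say otherwise, and the median log2 fold change of all such genes was 0.016. The groups that departed furthest from these shares were proteins of the endoplasmic reticulum (ER) and the Rhox cluster, which were higher in Mta2_KO, and genes of the 2-cell stage and the Hox clusters, which were lower.

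**Figure D2:**
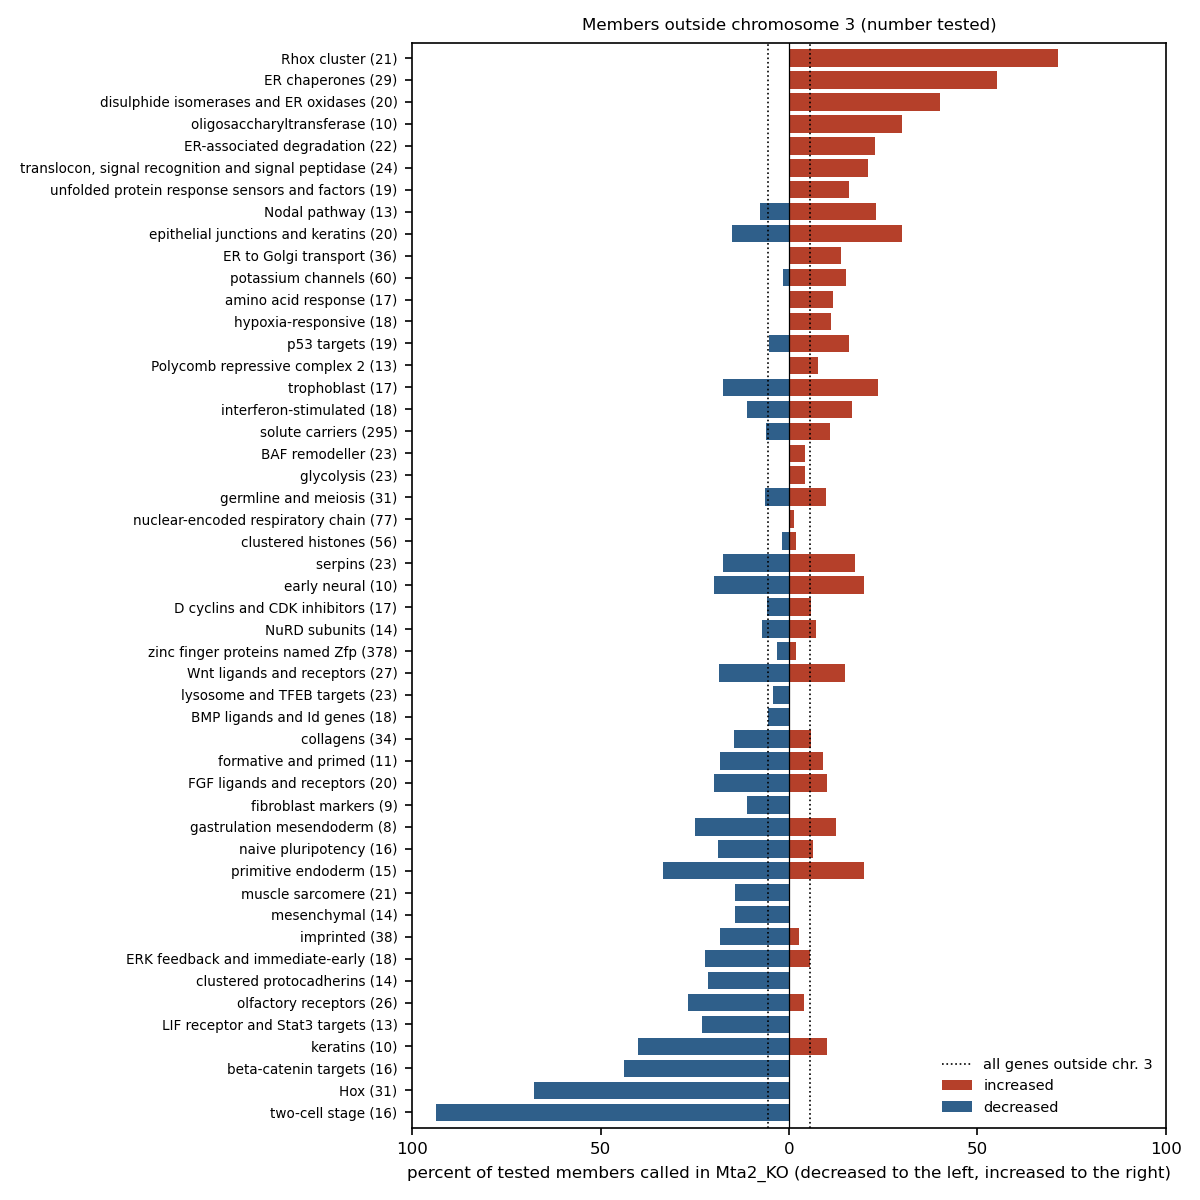
Percentage of the tested members outside chromosome 3 of each gene list with at least 8 tested members and a called one there that were increased (to the right) or decreased (to the left) in Mta2_KO, with dotted lines at 5.44% and 5.65% for all genes outside chromosome 3. The bars of ER chaperones and the Rhox cluster reach to the right past 50%, and those of the 2-cell stage and the Hox clusters to the left past 60%.

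The ER folds and glycosylates proteins on their way to the cell surface. When unfolded protein builds up there, the sensors Atf6, Ern1 and Eif2ak3 raise the transcription of chaperones, disulphide isomerases and degradation factors, the unfolded protein response. Lists of these proteins were drawn up after the values had been seen, so their counts describe these data and are no independent evidence of a direction. Of 29 ER chaperones and their partners, 16 were increased and none decreased, with a median log2 fold change of 1.16. Whatever the fold, 23 were higher at an adjusted p under 0.05, the 16 among them. The count was 16 in the 3 libraries with high counts of the 12 Gm models and 16 in the 3 with low counts.

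The main chaperone Hspa5, also called BiP, stood at 2596, 2838 and 2629 CPM in Mta2_KO and 834, 830.4 and 794 CPM in Mta2_WT (log2 1.71, SE 0.05, adjusted p = 1.13e-08). Its nucleotide exchange factor Hyou1 stood at 1162, 1165 and 1171 CPM and 277, 308 and 269 CPM (2.04, SE 0.06, adjusted p = 1.77e-08). In both genes the libraries of 1 genotype lay close together and the groups did not overlap. The ER Hsp90 protein Hsp90b1 rose from 1022 ± 53.9 to 2809 ± 53.6 CPM (SD, n = 3 each), and the lectin chaperone Calr, which holds glycoproteins during folding, from 1113 ± 40.7 to 3252 ± 144 CPM. The co-chaperones Dnajc3 (1.99) and Dnajb9 (1.71) were increased as well.

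Relative to wild type, the steepest of the group was Fkbp11, a prolyl isomerase of secretory cells, at 99.7, 112 and 99.3 CPM in Mta2_KO and 10.4, 9.30 and 10.3 CPM in Mta2_WT (log2 3.38, SE 0.07, adjusted p = 2.04e-09). Manf, a small secreted ER-resident protein induced by ER stress, followed at 370.3, 399.8 and 357 CPM and 74.0, 64.4 and 65.8 CPM (2.46, SE 0.07, adjusted p = 9.83e-09). Sdf2l1, a partner of BiP, differed by 2.37. Canx, the membrane-bound relative of Calr, was the nearest to the threshold at 1.01 and lost its call without Mta2_KO replicate 2, where its difference was 0.99, and without Mta2_WT replicate 3, where it was 0.97. The collagen chaperone Serpinh1 was increased from 243 to 720.3 CPM (1.57).

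Disulphide isomerases and ER oxidases, which form and reshuffle disulphide bonds, had 8 of 20 tested members increased and none decreased, with a median of 0.53. Pdia4 stood at 1191, 1279 and 1194 CPM in Mta2_KO and 336, 324 and 321 CPM in Mta2_WT (1.90, SE 0.05, adjusted p = 1.08e-08). Pdia6 (1.72), Ero1lb (1.36), which reoxidises isomerases, and P4hb (1.30) passed as well.

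The steps before and after folding showed smaller shares. Of 24 components of the translocon, signal recognition and signal peptidase 5 were increased, Sec61a1 and Sec61b of the channel among them (1.20 and 1.32). Of 10 oligosaccharyltransferase subunits 3 were increased, led by Rpn1 (1.40). Without Mta2_WT replicate 3 the catalytic subunits Stt3a (0.99) and Stt3b (0.94) lost their calls and Rpn1 alone was left, and Stt3a was also lost without Mta2_KO replicate 2 (0.98) and Stt3b in the 3 libraries with low counts of the 12 Gm models (0.97). ER-associated degradation, which exports misfolded proteins for destruction, had 5 of 22 members increased. Its leader Derl3, a channel component, stood at 30.3, 31.8 and 34.0 CPM in Mta2_KO and 2.32, 2.23 and 2.72 CPM in Mta2_WT (3.73, SE 0.10, adjusted p = 6.56e-09). Selenos (1.98), Herpud1 (1.92), the mannosidase-like Edem1 (1.41) and the ubiquitin ligase Syvn1 (1.22) followed. Of 36 ER to Golgi transport proteins 5 were increased, with Tmed3 at 2.28 and the cargo receptor Surf4 at 1.60. No member of these 4 lists was decreased.

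The sensors themselves moved less. Eif2ak3 stood at 60.1, 59.4 and 58.7 CPM in Mta2_KO and 30.2, 30.5 and 29.8 CPM in Mta2_WT, a log2 difference of 0.98 (SE 0.04, adjusted p = 1.75e-07), just under the fold threshold. Xbp1, the factor that Ern1 activates by splicing its mRNA, differed by 0.93, Atf6 by 0.13 and Ern1 by 0.15 (adjusted p = 0.213). The counts per gene do not separate spliced from unspliced Xbp1. Bhlha15, also called Mist1, a factor of secretory cells, was increased from 0.882 to 6.77 CPM (2.94), and it was 1 of 3 increased members of 19. By contrast none of 25 cytosolic and mitochondrial chaperones passed in either direction, and their median was -0.01. The cytosolic Hspa8, close kin of Hspa5, stood at 4491, 4734 and 4403 CPM against 4381, 4299 and 4436 CPM, a difference of 0.06.

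**Figure D3:**
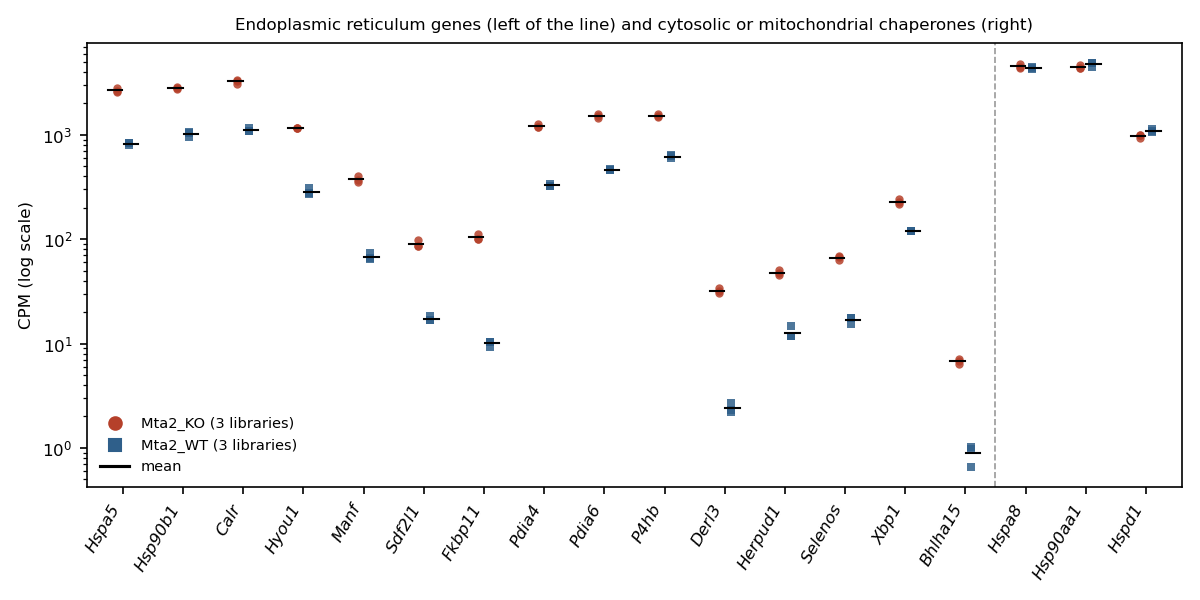
CPM on a log axis in each of the 6 libraries for genes of ER protein folding, left of the dashed line, and cytosolic or mitochondrial chaperones, right of it, with 1 point a library, a separate colour for each genotype and a bar at the mean. The ER genes are higher in Mta2_KO without overlap, from a log2 value of 0.93 for Xbp1, which was not called, to 3.73 for Derl3, whereas Hspa8, Hsp90aa1 and Hspd1 lie close together in both genotypes.

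Set beside the rest of the single-mutant set on a common TMM scale, the summed CPM of the ER chaperones was 15472 to 16499 in Mta2_KO, 5778 to 6145 in Mta2_WT and 3572 to 5558 in the other 12 libraries. The Mta2_KO libraries were the ones that stood furthest from the others. These values are a description, since lines and preparation differ between the sets.

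Some of these chaperone genes carry the ER stress response element in their promoters, in which NF-Y binds a CCAAT box and Atf6 or Xbp1 a CCACG box at a fixed distance. The pattern CCAAT, 9 bases of any kind, CCACG was searched on both strands in the 250 bases upstream of each gene start of the RefSeq promoter table (GRCm38.p6), a choice made after the values had been seen. It was found for 35 of 27025 genes (0.1295%). Of these 21 were tested, and 15 of them were increased and none decreased (71.4%), with a median log2 fold change of 1.46, while 5.29% of the 11939 tested genes of the table were increased. The 9 holders that belong to the ER lists were all increased, but most genes of those lists did not hold the pattern. Among genes matched in the table it was held by 6 of 24 ER chaperones, 1 of 19 isomerases and oxidases and 2 of 17 degradation genes. In the translocon, oligosaccharyltransferase, ER to Golgi and sensor lists 0 genes held it. Sequences are shown for these 9 holders only, chosen because they belong to the ER lists. Each has the pattern in capitals and up to 30 bases on either side, written along the strand of the gene.
Hspa5 (chr2:34771995-34772073, + strand): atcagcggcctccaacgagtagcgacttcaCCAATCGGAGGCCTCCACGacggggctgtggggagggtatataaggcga
Dnajc3 (chr14:118937797-118937875, + strand): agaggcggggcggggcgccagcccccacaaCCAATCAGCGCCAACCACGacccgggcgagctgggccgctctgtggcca
Pdia6 (chr12:17266461-17266539, + strand): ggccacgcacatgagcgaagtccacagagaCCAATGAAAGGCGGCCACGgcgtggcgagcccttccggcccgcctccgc
Syvn1 (chr19:6046502-6046575, + strand): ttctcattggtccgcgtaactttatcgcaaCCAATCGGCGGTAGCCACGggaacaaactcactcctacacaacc
Canx (chr11:50325770-50325848, - strand): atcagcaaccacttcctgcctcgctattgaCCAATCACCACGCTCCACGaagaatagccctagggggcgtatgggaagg
Hsp90b1, distal (chr10:86705608-86705686, - strand): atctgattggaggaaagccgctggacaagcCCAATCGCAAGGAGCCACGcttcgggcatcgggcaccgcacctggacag
Hsp90b1, proximal (chr10:86705503-86705581, - strand): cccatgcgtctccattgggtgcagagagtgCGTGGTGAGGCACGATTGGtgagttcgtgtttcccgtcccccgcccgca
Calr (chr8:84847045-84847123, - strand): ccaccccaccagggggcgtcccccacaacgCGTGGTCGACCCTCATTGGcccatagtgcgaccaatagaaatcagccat
Derl3 (chr10:75893212-75893290, + strand): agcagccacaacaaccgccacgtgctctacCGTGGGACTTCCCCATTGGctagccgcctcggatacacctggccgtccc
Creld2 (chr15:88819490-88819568, + strand): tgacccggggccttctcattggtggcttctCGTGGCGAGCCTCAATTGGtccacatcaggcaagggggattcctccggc

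Read along the gene, 6 of the 10 copies have the CCAAT box first and 4 are in the opposite orientation, CGTGG first. They end between 25 bases (Syvn1) and 193 bases (the distal copy of Hsp90b1) from the gene start. The other increased holders were Xlr3a, Xlr3b and Xlr3c of the X chromosome, Calr4, the mannosyltransferase gene Alg12 and Tdrd9. Adcy3, Ptgdr2, Pan2, Hnrnpa3, Zfp57 and Acacb hold the pattern too and were not called, Acacb with a log2 value of -0.98. Xlr3a, Xlr3b and Xlr3c are close copies that share reads. A related element, ATTGG, 1 base of any kind, CCACG, was held by 7 tested genes, of which 1 was increased, and the unfolded protein response element TGACGTGG by 110, of which 10 were increased and 5 decreased. A match in these letters is a description of the sequence and no measure of binding.

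Genes of the 2-cell stage are switched on at zygotic genome activation and, in ES cultures, in rare cells that pass through a state resembling the 2-cell embryo. Dux switches on Zscan4, Zfp352, the Tcstv and Usp17l families and MERVL-driven genes in that state. Outside chromosome 3, 15 of 16 tested members were decreased and none increased, with a median log2 fold change of -3.84, and the exception was Usp17la (-0.80). On chromosome 3, 4 of 5 were decreased, all but Tdpoz5. The count outside chromosome 3 was 16 in the 3 libraries with high counts of the 12 Gm models and 15 in the 3 with low counts. Libraries from bulk cultures cannot tell fewer cells of this state from less RNA per cell.

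Zscan4c stood at 15.6, 16.5 and 13.8 CPM in Mta2_KO and 305, 298 and 315 CPM in Mta2_WT (log2 -4.32, SE 0.07, adjusted p = 3.59e-10). Zscan4f, at chr7:11397915-11402318, stood at 14.7, 14.7 and 15.7 CPM and 306, 302 and 309.7 CPM (-4.35, SE 0.05, adjusted p = 8.67e-11). No Mta2_KO library came near a wild-type library for either gene. Zfp352, a zinc finger gene of the 2-cell embryo, stood at 1.64, 1.46 and 0.951 CPM against 29.0, 29.5 and 29.8 CPM (-4.42), and Duxf3, the listed copy of Dux, at 1.57, 1.21 and 1.24 CPM against 9.67, 10.5 and 11.3 CPM (-2.96, SE 0.13, adjusted p = 1.93e-07). Tmem92 (-3.83), Sp110 (-3.94), Tcstv1 (-3.85) and Tcstv3 (-3.77) fell alongside. The members of the Zscan4, Tcstv, Usp17l and Tdpoz families are near-identical copies, so the split of reads among copies is uncertain while the family sums are less so.

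**Figure D4:**
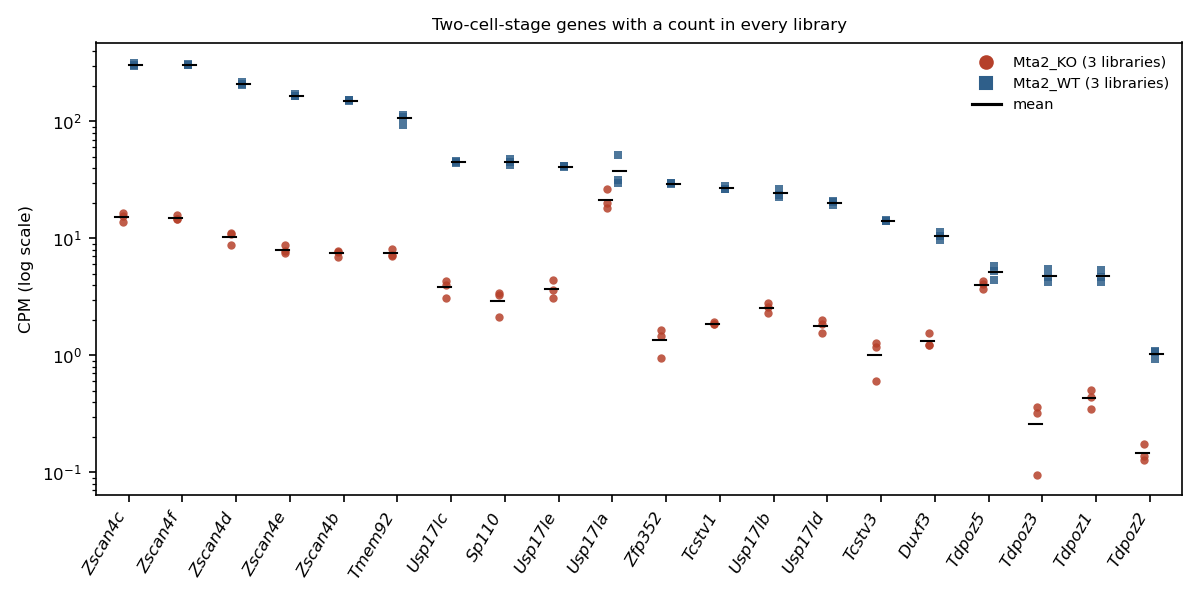
CPM on a log axis in each of the 6 libraries for listed genes of the 2-cell stage that had a count in every library, those on chromosome 3 included, with 1 point a library, a separate colour for each genotype and a bar at the mean. Zscan4c is at 13.8 to 16.5 CPM in Mta2_KO and 298 to 315 CPM in Mta2_WT, and the groups are closest for Usp17la and Tdpoz5, which were not called.

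Summed over the 21 members, these genes took 109 to 112 CPM in Mta2_KO and 1514 to 1605 CPM in Mta2_WT. In the other 12 single-mutant libraries, on the common scale, the sum ran from 4.87 to 1190 CPM with a median of 52.1. The Mta2_WT sum was above that of all 12, whereas the Mta2_KO sum fell within their range. Of these 12, 8 lay below the lowest Mta2_KO sum and 4 above the highest. These values are a description, since lines and preparation differ between the sets.

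The decreased genes also clustered in the genome. Of 373 decreased genes past 4-fold on any chromosome, 154 (41.3%) lay in 17 runs of at least 5 such genes with gaps of at most 500000 bases, and 112 of the 373 carry only a Gm model name. Of the 153 increased genes past 4-fold only 4 do, and there were 2 increased runs. One decreased run held 27 genes, all 27 tested in its span decreased, at chr5:93481829-95804708. A run at chr13:119827961-120318178 held 12 of 12 tested genes, Tcstv1, Tcstv3 and BC147527 among them, and 1 at chr12:87514316-88324026 held 13 of 14. The Zscan4 genes and pseudogenes formed a run of 8 of 8 at chr7:10900740-11614112, with log2 fold changes from -4.38 to -4.31. On chromosome 4 a run at chr4:143437164-144364419 held Oog4 and Pramef genes, which are expressed in oocytes and early embryos, with all 16 tested genes decreased. On chromosome 3 the Tdpoz run held 11 called genes of 20. Most runs are tandem families with near-identical copies, so their genes are not independent of each other.

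Hox genes, whose collinear clusters set position along the body axis and are kept low by Polycomb in ES cells, had 21 of 31 tested members decreased and none increased, with a median of -1.46. The count was 18 in the 3 libraries with high counts of the 12 Gm models and 21 in the 3 with low counts. Hoxa9 stood at 0.447, 0.414 and 0.634 CPM in Mta2_KO and 14.3, 10.8 and 13.2 CPM in Mta2_WT (log2 -4.69, SE 0.18, adjusted p = 7.71e-08). Its neighbour Hoxa7 stood at 2.76, 2.32 and 2.92 CPM and 26.4, 27.6 and 30.2 CPM (-3.40, SE 0.10, adjusted p = 1.67e-08). The members from Hoxa5 to Hoxa10 and from Hoxc4 to Hoxc10 formed runs of decreased genes. Hoxc6 (-3.57) and Hoxc5 (-3.33) were low in both genotypes. Hoxb9, at 7.83, 6.46 and 7.55 CPM and 6.01, 5.14 and 5.98 CPM, was the single member higher at the adjusted p alone (0.35). The summed CPM of the Hox genes on the common scale was 177 to 196 in Mta2_WT, 67.4 to 75.5 in Mta2_KO and 24.9 to 93.5 in the other 12 libraries.

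Targets of beta-catenin were decreased in part. Among 16 targets of beta-catenin, through which Wnt signals and Gsk3 inhibition reach the nucleus, 7 were decreased and none increased, with a median of -0.80. The caudal factor Cdx2, which activates Hox genes, stood at 1.81, 1.16 and 1.49 CPM in Mta2_KO and 15.6, 14.4 and 14.4 CPM in Mta2_WT (-3.30, SE 0.14, adjusted p = 1.58e-07). Its relative Cdx1 stood at 44.8, 41.4 and 41.0 CPM and 198, 189 and 198 CPM (-2.20, SE 0.05, adjusted p = 2.56e-09). T, also called Brachyury (-2.23), Myc (-2.10), Rnf43 (-2.45) and Nkd1 (-1.12), the last a feedback inhibitor, passed too. Axin2, a feedback inhibitor, passed at -1.02 and lost the call without Mta2_WT replicate 1 (-0.97) or 2 (-0.97) and in the 3 libraries with high counts of the 12 Gm models (-0.78). In the fit of 18 libraries T (adjusted p = 0.0504) and Nkd1 (adjusted p = 0.0923) lost their calls, leaving 5 of the 7. Beta-catenin itself, Ctnnb1, did not pass (-0.13, adjusted p = 0.068). Of 27 Wnt ligands and receptors 4 were increased, led by Wnt7b (2.57), and 5 decreased, led by Wnt5b (-1.76), and the fit of 18 libraries called 2 and 3.

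The Rhox cluster on the X chromosome encodes homeobox proteins of placenta and germ cells. Of its 21 tested members 15 were increased and none decreased, with a median of 2.13. The count was 12 in the 3 libraries with high counts of the 12 Gm models and 13 in the 3 with low counts. Rhox5, the founding member, stood at 340.3, 355 and 343 CPM in Mta2_KO and 76.6, 74.8 and 75.2 CPM in Mta2_WT (2.20, SE 0.04, adjusted p = 9.26e-10). Rhox6 (2.13) and Rhox9 (2.37), both expressed in placenta, kept the same separation, and the copies from Rhox2a to Rhox2h ranged from 2.56 to 3.76 at levels of at most 5.89 CPM. The Rhox2 copies share reads. Rhox5 was between 26.5 and 283 CPM in the other 12 libraries, below the 359.6 to 376 CPM of Mta2_KO on the common scale, and 4 of these 12 were below Mta2_WT.

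**Figure D5:**
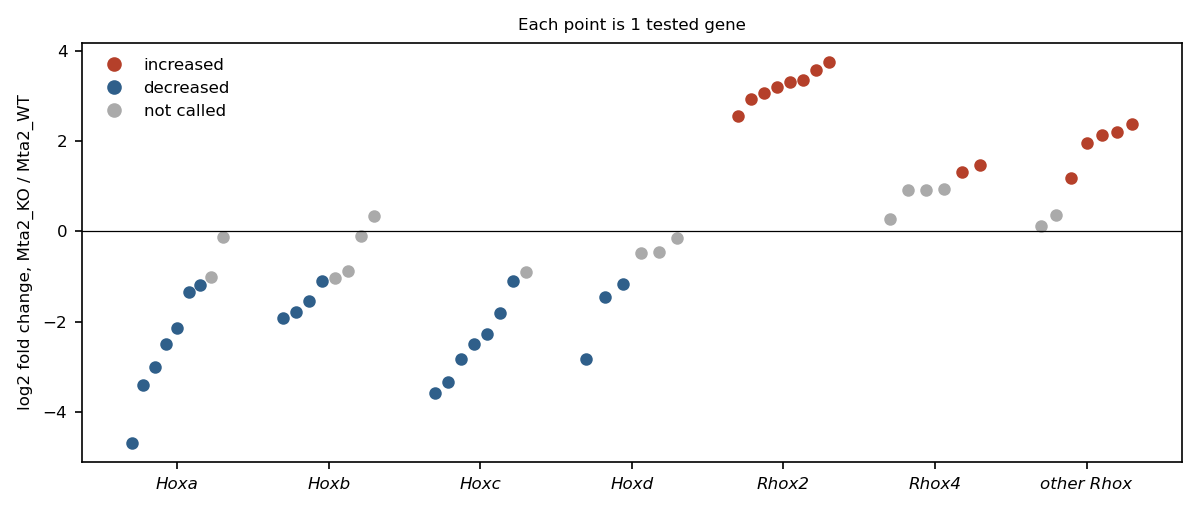
Log2 fold change of Mta2_KO over Mta2_WT for tested Hox and Rhox genes, 1 point a gene, grouped by cluster or family and sorted by value within it, with colours for increased, decreased and not called. The 21 called Hox genes lie below 0 and the 15 called Rhox genes above 0.

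A second run of increased genes on the X chromosome held the Xlr family, multicopy genes first found in lymphocytes, with Xlr5a at 9.37, 9.55 and 9.92 CPM against 1.53, 1.43 and 1.57 CPM (2.67). Of 592 tested X-linked genes 73 were increased (12.3%) and 31 decreased (5.24%), while their median was 0.025. The median was thus not shifted, while the upper quartile, 0.442, was the highest of the chromosomes compared. The Rhox and Xlr runs held 13 and 9 of the increased genes. On the Y chromosome Eif2s3y had no count in any Mta2_KO library, which allows up to 0.0746 to 0.0951 CPM by counting error alone, and 0.437, 0.396 and 0.393 CPM in Mta2_WT. Ddx3y stood at 0.0249, 0 and 0 CPM against 0.464, 0.544 and 0.544 CPM. Eif2s3y and Ddx3y were decreased, but not in the fit of 18 libraries (adjusted p = 0.685 and 0.651). Zfy1, Zfy2 and Usp9y, which did not pass the filter, had no count in any Mta2_KO library and at most 0.181 CPM in Mta2_WT. Uty and Kdm5d had counts in all 6 libraries, at 28.7 and 16.4 CPM on average in Mta2_KO, and neither was called. Kdm5d was lower at the adjusted p alone (-0.48), and Uty stood at 17.5, 16.9 and 40.7 CPM in Mta2_WT.

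Markers of naive ES cells were present in all 6 libraries. Of general pluripotency genes outside chromosome 3, 0 of 11 were called in the edgeR test, although 7 were lower at the adjusted p alone. Pou5f1, or Oct4, stood at 647, 718 and 673 CPM in Mta2_KO and 836, 801 and 792 CPM in Mta2_WT, a difference of -0.25 (SE 0.06, adjusted p = 0.005). Nanog stood at 1298, 1383 and 1277 CPM and 1537, 1506 and 1529 CPM (-0.21, SE 0.05, adjusted p = 0.00468). Both differences were inside the fold threshold. Tdgf1 (-0.60), L1td1 (-0.57), Lin28a (-0.51), Dppa2 (-0.49), Zfp281 (-0.33) and Dppa4 (-0.33) were the others lower at the adjusted p alone, and Sall4 (-0.20), Trim28 (-0.06) and Utf1 (0.14) did not pass it. Sox2, which lies on chromosome 3, differed by -0.36, less than the chromosome median.

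Among 16 naive pluripotency genes 1 was increased and 3 were decreased. Dppa3, or Stella, which protects maternal methylation marks, stood at 159, 169.7 and 162 CPM in Mta2_KO and 32.7, 30.4 and 33.1 CPM in Mta2_WT (2.35, SE 0.05, adjusted p = 2.03e-09). Gbx2 (11.2, 11.3 and 12.1 CPM against 40.9, 36.2 and 40.2 CPM, -1.76), Tbx3 (63.2, 58.6 and 65.8 CPM against 168, 188 and 139 CPM, -1.40) and Klf4 (42.1, 34.1 and 40.0 CPM against 99.1, 112 and 82.3 CPM, -1.34) were decreased. These 3 factors sustain self-renewal downstream of LIF and the 2 inhibitors. In the 3 libraries with high counts of the 12 Gm models Klf4 stood at -0.998 and lost the call. Nr0b1 (-0.92), Klf5 (-0.88), Tfcp2l1 (-0.77), Esrrb (-0.35), Fbxo15 (-0.26), Prdm14 (-0.20) and Dppa5a (-0.195) were, like Nanog, lower at the adjusted p alone. Zfp42 (0.25) and Fgf4 (0.17) were higher, and Klf2 (0.01, adjusted p = 0.94) and Nr5a2 (0.10, adjusted p = 0.108) did not pass. Summed naive markers took 5201 to 5467 CPM in Mta2_KO and 6509 to 6878 CPM in Mta2_WT.

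Signalling readouts of the medium were lower in part. Of 13 genes of the LIF receptor pathway and its Stat3 targets 3 were decreased and none increased, with the feedback inhibitor Socs3 at 19.8, 20.3 and 19.6 CPM in Mta2_KO and 48.4, 49.3 and 48.6 CPM in Mta2_WT (-1.29, SE 0.05, adjusted p = 5.39e-08) beside Gbx2 and Klf4. Of 18 ERK feedback and immediate-early genes 4 were decreased, namely Myc, Etv4 (-1.11) and the feedback inhibitors Spry2 (-1.60) and Spry4 (-1.58), and 1, Ier3 (1.04), was increased. Spry2 stood at 36.7, 34.4 and 36.0 CPM and 110.2, 112 and 103 CPM, and Spry1, on chromosome 3, differed by -1.81. Ier3 lost its call without Mta2_KO replicate 1, at 0.79 (adjusted p = 0.0446), without Mta2_WT replicate 3, at 0.92, or in the 3 libraries with low counts of the 12 Gm models, at 0.90. Etv4 (adjusted p = 0.222) and Spry4 (adjusted p = 0.149) lost theirs in the fit of 18 libraries.

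FGF ligands and receptors had 2 increased and 4 decreased members of 20, with 2 decreased in the fit of 18 libraries and 1 increased without Mta2_KO replicate 2. Fgf1 (0.472, 0.690 and 0.729 CPM against 11.7, 10.7 and 12.1 CPM, -4.20) and Fgf7 (0.771, 0.718 and 0.507 CPM against 11.7, 11.7 and 10.5 CPM, -4.06) fell below 1 CPM, while the receptor Fgfr2, which both ligands bind, rose from 14.8 ± 1.13 to 72.6 ± 1.23 CPM (SD, n = 3 each, 2.29, SE 0.06, adjusted p = 7.82e-09). Of 13 Nodal pathway genes 3 were increased and 1 was decreased, with 1 increased under normalization on genes outside chromosome 3 or without the filter on low counts. The receptor Acvr1b was the decreased one, from 68.4 to 19.6 CPM (-1.81). Foxh1 (1.02), Smad3 (1.005) and Lefty1 (1.02) sat so near the threshold that leaving out 1 library ended each call, at 0.98 for Foxh1 without Mta2_WT replicate 2, 0.97 and 0.99 for Smad3 without Mta2_KO replicate 1 or Mta2_WT replicate 3, and 0.93 and 0.94 for Lefty1 without Mta2_KO replicate 2 or Mta2_WT replicate 2. In the 3 libraries with high counts of the 12 Gm models Foxh1 was at 0.98 and Lefty1 at 0.91, in the 3 with low counts of the 12 Gm models Smad3 was at 0.94, and in the fit of 18 libraries Lefty1 had an adjusted p of 0.382. BMP ligands and Id genes had 1 of 18 decreased, Bmp4 (-1.004), which lost its call without Mta2_KO replicate 1 (-0.92) or Mta2_WT replicate 3 (-0.93), in the 3 libraries with low counts of the 12 Gm models (-0.89) and in the fit of 18 libraries (adjusted p = 0.185).

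Genes of later lineages were called in both directions. Of 11 formative and primed genes Otx2, at 1.17, 0.911 and 0.856 CPM against 0.519, 0.396 and 0.483 CPM, was increased (1.08), and Etv4 and Foxd3 (-1.01) were decreased. The call of Otx2 ended without Mta2_KO replicate 1 (0.92) or Mta2_WT replicate 2 (0.96), and that of Foxd3 without Mta2_KO replicate 1 (-0.93), Mta2_WT replicate 1 (-0.98) or Mta2_WT replicate 3 (-0.99). Of 8 gastrulation genes Nkx1-2 (-2.73) and T were decreased and Wnt3 was increased (1.07), the last of which lost its call without Mta2_KO replicate 2 (0.94) or Mta2_WT replicate 2 (0.94). In the fit of 18 libraries Otx2 (adjusted p = 0.203), Foxd3 (adjusted p = 0.113), Etv4 and T, as given above, and Wnt3 (adjusted p = 0.251) were not called. The call of Otx2 was also lost in the libraries of either kind (adjusted p = 0.0687 and 0.11), that of Wnt3 in those with high counts of the 12 Gm models (0.79) and that of Foxd3 in those with low counts (-0.91).

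Of 15 primitive endoderm genes 3 were increased and 5 decreased, and 1 and 3 in the fit of 18 libraries. The increased members were Sox7 (1.56), Dab2 (1.34) and Srgn (1.22). Dab2 (adjusted p = 0.0689) and Srgn (adjusted p = 0.0527) lost their calls in that fit. Hnf4a, a factor of visceral endoderm, stood at 0.597, 0.607 and 0.507 CPM in Mta2_KO and 8.22, 8.01 and 10.1 CPM in Mta2_WT (-3.93, SE 0.16, adjusted p = 9.83e-08), and the cofactor Cited1 at 2.24, 1.71 and 1.84 CPM and 26.4, 25.7 and 29.2 CPM (-3.80). The defining markers Sox17 and Gata6 were below 1 CPM in all 6 libraries, and Gata4 was at 1.02 CPM in Mta2_KO and 2.26 CPM in Mta2_WT (-1.15). Gata4 and Gata6 were both counted as decreased and lost their calls in the fit of 18 libraries (adjusted p = 0.128 and 0.249) and in the 3 libraries with low counts of the 12 Gm models (-0.97 for Gata4, adjusted p = 0.0817 for Gata6), and Gata6 also without Mta2_KO replicate 2 or 3 or Mta2_WT replicate 2 or 3 (adjusted p from 0.054 to 0.114). Summed over the 18 listed markers CPM was 575 to 594 in Mta2_KO and 463 to 479 in Mta2_WT. Sparc, which was not called (0.57), made up most of this sum, at 490 CPM on average in Mta2_KO and 331 CPM in Mta2_WT. Of 17 trophoblast genes 4 were increased, Rhox6, Rhox9, Fgfr2 and Tfap2c, and 3 were decreased, Cdx2, Krt8 and Krt18 (5 in the 3 libraries with low counts of the 12 Gm models), the last not called in the fit of 18 libraries (adjusted p = 0.115). Tfap2c, a factor shared by trophoblast and germ cells, stood at 133, 128 and 125 CPM and 56.5, 59.1 and 49.6 CPM (1.22, SE 0.06, adjusted p = 5.58e-07). The trophoblast sum was 291 to 301 CPM against 189 to 195 CPM. Tfap2c and Fgfr2, the latter at 72.6 CPM on average in Mta2_KO and 14.8 CPM in Mta2_WT, made up most of the Mta2_KO sum. The higher sum therefore does not describe the list as a whole. Whatever the fold, 5 of the 17 genes were higher and 8 lower at an adjusted p under 0.05, with a median log2 fold change of -0.37.

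The early neural genes summed to 299 to 305 CPM in Mta2_KO and 103 to 117 CPM in Mta2_WT, with 2 increased and 2 decreased of 10. Tubb3, a tubulin of neurons, made up most of this sum and stood at 208, 220.2 and 201 CPM and 55.3, 54.2 and 57.9 CPM (1.91, SE 0.05, adjusted p = 6.74e-09). Pax6 was higher (1.53) with a wide spread, at 20.2, 16.6 and 24.8 CPM against 3.99, 4.25 and 13.4 CPM, and in the 3 libraries with high counts of the 12 Gm models it stood at 0.749 and lost the call. Nes, on chromosome 3, was increased as well (1.36). The defining factor Sox1 went the other way, at 0.423, 0.0552 and 0.285 CPM and 1.09, 0.544 and 0.816 CPM (-1.65), and lost its call without Mta2_KO replicate 2, Mta2_KO replicate 3 or Mta2_WT replicate 1 (adjusted p = 0.0635, 0.0777 and 0.118), in the 3 libraries with high counts of the 12 Gm models (adjusted p = 0.0803) and in the fit of 18 libraries (adjusted p = 0.0561), where no early neural gene was decreased. Fibroblast markers summed to 27.8 to 29.0 CPM in Mta2_KO and 33.8 to 35.8 CPM in Mta2_WT, with 8 of 16 below 1 CPM in every library. The part that cells of other types had in the results was not tested.

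In germline and meiosis genes 3 of 31 were increased and 2 decreased, with 5 increased in the 3 libraries with high counts of the 12 Gm models. Prdm1, or Blimp1, the factor that specifies primordial germ cells, stood at 27.1, 24.0 and 26.1 CPM in Mta2_KO and 4.78, 4.57 and 4.44 CPM in Mta2_WT (2.48, SE 0.08, adjusted p = 2.57e-08). Spo11, the nuclease of meiotic breaks (2.94), and the cohesin Stag3 (1.06) were increased, and Brdt (-2.08) and Tdrd1 (-1.67) were decreased. Brdt lost its call in the fit of 18 libraries (adjusted p = 0.0617) and Stag3 in the 3 libraries with high counts of the 12 Gm models (0.96). With Dppa3 and Tfap2c, Prdm1 belongs to the factors of early germ cells, and all 3 were higher. This grouping draws on different lists and was made with the values known. Prdm14, a further such factor, was lower at the adjusted p alone (-0.20), and the list as a whole had shares near those of all genes.

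Imprinted genes, expressed from 1 parental copy, had 1 increased and 7 decreased members of 38. Peg10, a paternally expressed gene derived from a retrotransposon, stood at 28.9, 24.0 and 30.6 CPM in Mta2_KO and 266, 271 and 231 CPM in Mta2_WT (-3.20, SE 0.10, adjusted p = 1.69e-08). Its neighbours Sgce (-1.50) and Ppp1r9a (-1.43) on chromosome 6, the retrotransposon-derived Rtl1 (-2.38) and the growth factor Igf2 (-1.71) fell too. Plagl1 (-1.01) and Zdbf2 (-1.15) were near the threshold and lost their calls without Mta2_WT replicate 2, at -0.91 and -0.87, and Plagl1 also without Mta2_KO replicate 2, at -0.90. In the 3 libraries with high counts of the 12 Gm models they stood at -0.66 and -0.78. Slc22a18 was the increased member (1.49). In the fit of 18 libraries Igf2 (adjusted p = 0.347), Sgce (adjusted p = 0.0933) and Slc22a18 (adjusted p = 0.0795) lost their calls. None of 8 DNA methylation and TET genes outside chromosome 3 was called, and Dnmt3l (0.60), Tdg (0.51), Dnmt3b (-0.46) and Uhrf1 (-0.48) differed at the adjusted p alone.

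Other chromatin complexes were little changed. None of 23 Sin3, CoREST and NCoR subunits was called, and 1 of 23 BAF subunits was, Smarca2 (1.04), which lost its call without Mta2_WT replicate 3 (0.95) and in the 3 libraries with low counts of the 12 Gm models (0.94). Of 13 subunits of Polycomb repressive complex 2, Phf19, an accessory subunit that brings the complex to its targets, was increased. It stood at 25.1, 24.0 and 26.2 CPM in Mta2_KO and 0.710, 1.19 and 0.786 CPM in Mta2_WT (4.79, SE 0.15, adjusted p = 1.84e-08). The core subunits Ezh2 (0.07), Suz12 (-0.03) and Eed (-0.27) were not called.

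Epithelial genes were called in both directions. Of 20 junction and keratin genes 6 were increased, among them Krtdap, a keratinocyte protein, at 16.8, 14.9 and 14.4 CPM in Mta2_KO and 0.355, 0.346 and 0.302 CPM in Mta2_WT (5.50, SE 0.14, adjusted p = 5.91e-09), the splicing regulator Esrp1 (3.19), the tight junction protein Tjp3 (1.96) and desmoplakin, Dsp (1.55). The claudins Cldn7 (1.21) and Cldn3 (1.12) were increased as well. The simple-epithelium keratins Krt8 (1.99, 1.44 and 2.28 CPM against 11.7, 11.9 and 10.3 CPM, -2.57), Krt18 (-1.73) and Krt19 (-1.44) were the 3 decreased members. In the fit of 18 libraries Krt18 (adjusted p = 0.115) and Krt19 (adjusted p = 0.148) lost their calls and Krt8 was left. E-cadherin, Cdh1, was higher at the adjusted p alone (0.53).

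The increased genes with the widest fold changes by the fixed naming rule included Krtdap and Phf19, followed by H2-M10.1 (4.38), the histamine methyltransferase Hnmt (4.04), Rhox2g, Derl3, Crmp1 (3.61), which guides axons, Tuba3a, Rhox2c, Oit1 (3.55), Pla2g2f (3.53), Pdgfd (3.43), Nrsn1 (3.42), Fkbp11 and Rhox2b. Of these 15 genes 8 averaged under 3 CPM in Mta2_KO. Tuba3a, a testis-type alpha tubulin, stood at 139, 144 and 137 CPM in Mta2_KO and 11.3, 12.1 and 11.3 CPM in Mta2_WT (3.60, SE 0.05, adjusted p = 1.27e-10). On the decreased side the rule named Hoxa9, Mta2, Krtap4-13 (-4.53), Zfp352, the Zscan4 copies Zscan4b, Zscan4d, Zscan4e, Zscan4f and Zscan4-ps3, and 6 gene models, Gm6176, BC147527, Gm4565, Gm4340, Gm428 and D13Ertd608e, with values between -4.84 and -4.33. Of these 15, 12 lie in the runs of decreased genes, Zfp352 is a listed 2-cell stage gene, and Mta2 and Gm4565 are neither.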

How the data were processed

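Gene expression was measured by RNA-seq. The authors trimmed reads with Trim Galore, aligned them to GRCm38/mm10 with TopHat2, counted them per Ensembl gene with featureCounts and deposited the counts, 1 library a file, without normalization; how multi-mapping reads were counted is not given in the sources used here, and close gene copies may share or lose counts. Groups were read from the genotype labels. From the counts, library sizes were scaled with TMM and genes kept with filterByExpr, and Mta2_KO was compared with Mta2_WT with the quasi-likelihood test of edgeR 4.0.16 (limma 3.58.1, R 4.3.3) on these 6 libraries, with Benjamini-Hochberg adjustment over all 15602 genes tested. A gene was called at an adjusted p under 0.05 and a log2 fold change past 1, the study's thresholds. On simulated data with 200 genes changed by a log2 value of 1.58 the fit recovered 90.5% of them, and 7.18% of its calls were false. In the real data 7460 genes differed at the adjusted p, so these rates need not hold for the calls made here. Symbols and positions come from the GRCm38 annotation, which matched 21852 of 22018 genes. The members and lists were chosen with earlier results of these data known, and the lists of ER proteins, of cytosolic chaperones and of the 12 Gm models and the promoter patterns were added after the values had been seen. Lists are described by counts and medians, without a test.

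Named were the NuRD subunits, the 15 increased and 15 decreased genes outside chromosome 3 and the 6 each way on chromosome 3 with the largest fold changes (groups not overlapping, the higher averaging 1 CPM or more), up to 4 called members of a list, and the pluripotency genes, of which 1 is not reported here; further genes beside them were chosen after their values were seen. At totals of 31273890 to 40613585 counts, a count of 0 allows up to 3 counts, or 0.0742 to 0.0951 CPM, by counting error alone. No pair of libraries of a genotype agreed within sampling noise, so all 6 were counted. Alternatives were DESeq2 1.42.0, no filter, normalization on genes outside chromosome 3, the replicate block, 1 fit of 18 libraries, no fold threshold, leaving out each library and, added after seeing the data, the kind of library. Lists, exact permutation tests and plots were made in Python 3.11.15 (scipy 1.17.1, pandas 2.3.3, numpy 2.4.6, matplotlib 3.10.9).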

Additional observations from a re-analysis of the deposited data

How the results depend on the processing

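No called value changed direction under any alternative. Without the fold threshold 7460 genes passed, 3617 increased and 3327 decreased outside chromosome 3 and 516 on it (54 increased, 462 decreased), and 12 beta-catenin targets instead of 7. Counted from the chromosome median, with the adjusted p still against 0, chromosome 3 had 37 genes past the fold threshold upward and 48 downward. In 1 fit of 18 libraries it had 12 increased genes instead of 19. That fit made 1260 calls instead of 1770, 592 increased and 574 decreased outside chromosome 3, with 16 Hox, 12 Rhox, 13 2-cell stage, 5 beta-catenin and 16 ER chaperone genes. Without the filter on low counts the lowest quartile of mean CPM, redrawn over more genes, held 67 calls instead of 757 and the highest 229 instead of 165, so the order of the quartiles turned. In the 3 libraries with high counts of the 12 Gm models, an alternative added after seeing the data, the median of chromosome 3 was -0.527; with the kind of library as a term 788 genes were increased and 881 decreased outside chromosome 3. Leaving out each library in turn gave 1712 to 1982 calls, 740 to 1013 increased and 809 to 852 decreased outside chromosome 3, 116 to 130 on it (15 to 25 increased, 101 to 109 decreased), a median there of -0.524 to -0.494, and 15 to 16 ER chaperones, 15 genes of the 2-cell stage, 20 to 22 Hox, 13 to 16 Rhox and 6 to 7 beta-catenin genes.

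The replicate numbers do not pair the samples, since same-numbered libraries correlated at -0.183, 0.233 and 0.306 in their deviations; the replicate block gave 1751 calls, 803 increased and 826 decreased outside chromosome 3. Of 5903 alternative values for 394 named or listed genes, 5537 kept direction and side of the thresholds, 33 newly passed and 333, of 120 genes, no longer passed, 73 of these in the 18-library fit; these causes were not tested.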

Other observations

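Membrane transport and stress genes were also called. Of 60 tested potassium channel genes 9 were increased and 1 decreased, with a median log2 fold change of 0.38, and without Mta2_WT replicate 3 the count was 14 increased and 2 decreased. Kcnk1, a leak channel, stood at 28.5, 29.9 and 27.6 CPM in Mta2_KO and 8.96, 7.42 and 8.16 CPM in Mta2_WT (1.81), and the cardiac channel gene Kcnh2 differed by 2.21. Of 295 solute carriers 32 were increased and 18 decreased, the latter 10 in the fit of 18 libraries. Slc10a6, a transporter of sulphated steroids (-4.15), and Slc25a20, the mitochondrial carnitine carrier, at 151, 145 and 149 CPM against 589.6, 581 and 606 CPM, were among the decreased. Of 17 amino acid response genes Trib3 (1.44) and Psat1 (1.07) were increased, and 14, Trib3 and Psat1 among them, were higher at an adjusted p under 0.05. Of 19 p53 targets Perp (2.37), Eda2r (1.76) and Gdf15 (1.23) were increased, and Pmaip1, or Noxa, was decreased (-1.76), a call lost in the fit of 18 libraries (adjusted p = 0.0596). Of 18 interferon-stimulated genes 3 were increased, led by Rsad2 (3.33), and 2 decreased, Ddx58 (-1.49) and B2m (-1.39). Among the listed hypoxia-responsive genes only the carbonic anhydrase Car12, from 2.22 to 19.4 CPM (3.12), and P4ha1 (1.04) passed both thresholds. P4ha1 lost its call without Mta2_KO replicate 2 (0.997) or Mta2_WT replicate 2 (0.98) and in the 3 libraries with high counts of the 12 Gm models (0.98). Others differed in both directions at the adjusted p alone, such as Ddit4 (0.95) and Pdk1 (-0.95). Among D cyclins and CDK inhibitors, Cdk6 fell from 79.0 to 29.2 CPM (-1.44) and Cdkn2a rose from 3.95 to 10.2 CPM (1.36).

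No member of several housekeeping groups was called. By edgeR 0 of 80 cytosolic ribosomal proteins, 0 of 22 cholesterol synthesis genes, 0 of 13 fatty acid synthesis genes and 0 of 13 mitochondrially encoded genes outside chromosome 3 were called, with 9, 16, 8 and 2 past the adjusted p alone. Among genes that passed the filter on low counts, the share called fell with the level. Over those outside chromosome 3, 9.27% were increased and 9.86% decreased in the lowest quartile of mean CPM, and 2.02% and 1.83% in the highest. Without that filter, over all chromosomes and with quartiles redrawn over more genes, the lowest quartile held 67 calls and the highest 229, against 757 and 165 with it, so this order depends on the filter. CPM is not corrected for gene length. A decreased gene chosen after its values were seen, Tmem72, stood at 1006, 991 and 1007 CPM in Mta2_KO and 13182, 12819 and 13031 CPM in Mta2_WT (-3.70, SE 0.03, edgeR adjusted p = 4.05e-12). In the 12 libraries of the Mta1 and Mta3 comparisons it ranged from 237 to 9027 CPM on their common scale.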
